A study of Mus musculus with 2 samples.

Results

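Scavenger and pattern-binding receptors were followed at the RNA level in alveolar macrophages (AMs), the resident phagocytes of the air spaces. The set was a list of 9 genes (Marco, Msr1, Cd36, Mrc1, Siglec1, Olr1, Clec7a, Scarb1 and Cd68), and 8 of them had a row among the 32285 gene identifiers of both count tables. Clec7a, which encodes the beta-glucan receptor dectin-1, was not analysed here. AMs had been sorted from the lungs of C57BL/6 mice at postnatal week 10, by the autofluorescent Siglec-F+ F4/80+ gate that the study used to keep AMs apart from Siglec-F- macrophages, and profiled with a droplet-based 3' assay that tags each captured RNA molecule with a unique molecular identifier (UMI). The control library came from mice given vehicle in the same orthotopic model. The tumor library came from mice carrying LLC cells, a mouse Lewis lung carcinoma line that had been injected into the left lung. The number of animals behind each library was not given in the sources used here, and the study bred experimental and control mice separately.

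There was 1 library per condition, so no test of the condition was possible. The study describes hashtag reads that assign barcodes to samples. They were not used here, and each count table was taken as 1 sample. All intervals below are 95% intervals that cover counting error only, and tumor bearing, the separate breeding and the library itself cannot be told apart. Barcodes with at least 500 genes and at most 10% mitochondrial UMIs were kept, which left 6185 of 8485 barcodes in the control library (median 10370 UMIs) and 7666 of 9175 in the tumor library (median 8264 UMIs). All 14 listed AM markers lay at or above 10 CPM (UMIs of a gene scaled to a library total of 1000000) in both libraries, with summed levels of 21133 and 19614 CPM. A list of 12 monocyte or monocyte-derived macrophage markers summed to 27.5 CPM in the control library and 133 CPM in the tumor library. Within that list no gene reached 10 CPM in the control library and 4 did in the tumor library (among them Itgam, C1qb and Ms4a7), and the defining monocyte genes Ly6c2 (0.154 and 1.74 CPM) and Ccr2 (4.38 and 9.16 CPM) lay under 10 CPM in both. The part of such cells in the differences below was not tested. The remaining lists of other cell types each summed to no more than 150.3 CPM in either library, and 16 control and 20 tumor barcodes carried the markers of another cell type.

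Scavenger receptors are a structurally mixed group that bind modified lipoproteins, microbial surfaces and cell debris and carry them into the cell. Marco and Msr1 encode class A receptors, trimeric proteins with collagenous stalks that AMs use to clear inhaled particles and bacteria. Cd36 and Scarb1 encode class B receptors for fatty acids, oxidized lipoproteins and high-density lipoprotein, and Olr1 encodes LOX-1, a C-type lectin-like receptor for oxidized LDL. Mrc1 (mannose receptor CD206) and Siglec1 (CD169) bind mannose-rich and sialylated glycans, and Cd68 encodes a heavily glycosylated protein of late endosomes and lysosomes.

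In the GRCm38 annotation (GENCODE vM21), Marco lies on the minus strand at chr1:120474538-120505024 with 17 exons in its principal transcript. Msr1 lies at chr8:39581685-39642673 (10 exons), Cd36 at chr5:17781690-17888801 (15 exons), Siglec1 at chr2:131069220-131086765 (21 exons), Olr1 at chr6:129485244-129507165 (8 exons), Scarb1 at chr5:125277087-125341094 (13 exons) and Cd68 at chr11:69664213-69666153 (6 exons), all on the minus strand. Mrc1 lies on the plus strand at chr2:14229392-14332057 with 30 exons. A 3' assay samples mainly the last exon, which for Marco spans chr1:120474538-120474789. The annotated genes that overlap a member, Mir511 in Mrc1 and Gm42633 in Scarb1, have no row in the tables.

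The stretches before the start sites of Marco, Cd36 and Olr1 are shown because these receptors lay farthest apart between the libraries in each direction among members with an entry in the RefSeq promoter table (GRCm38.p6). Each runs 250 bases up to the start site on the gene's own strand. Capitals mark matches, on either strand, to GAGGAA (the core bound by the myeloid factor PU.1), TGANTCA (the AP-1 element) or AGGTCA (the half-site of nuclear receptors). The Cd36 entry, at chr5:17835897-17836146, starts from a site inside the annotated gene. Marco is at chr1:120505025-120505274 and Olr1 at chr6:129507166-129507415.
Marco: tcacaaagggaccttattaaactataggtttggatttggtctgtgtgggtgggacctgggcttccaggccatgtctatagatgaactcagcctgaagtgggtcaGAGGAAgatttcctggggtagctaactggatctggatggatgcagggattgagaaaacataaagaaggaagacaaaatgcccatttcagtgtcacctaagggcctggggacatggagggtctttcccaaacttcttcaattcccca
Cd36: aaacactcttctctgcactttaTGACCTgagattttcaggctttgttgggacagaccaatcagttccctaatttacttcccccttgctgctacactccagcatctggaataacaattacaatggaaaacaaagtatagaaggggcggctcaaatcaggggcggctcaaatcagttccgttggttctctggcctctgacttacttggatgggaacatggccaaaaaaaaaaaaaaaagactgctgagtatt
Olr1: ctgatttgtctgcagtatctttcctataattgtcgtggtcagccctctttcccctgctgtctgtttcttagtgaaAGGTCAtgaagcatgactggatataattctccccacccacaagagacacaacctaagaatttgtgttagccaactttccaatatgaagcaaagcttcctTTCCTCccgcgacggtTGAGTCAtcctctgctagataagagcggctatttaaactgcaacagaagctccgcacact
The Marco stretch held a single GAGGAA at position -146 from the start site, the Cd36 stretch held AGGTCA on the opposite strand at -228, and the Olr1 stretch held all 3 motifs, at -175 (AGGTCA), -76 (GAGGAA) and -60 (TGAGTCA). Among 32851 stretches of the same length, 23.3% held GAGGAA, 6.75% held TGANTCA and 14.02% held AGGTCA, and the matches shown did not overlap each other. Such a match is a description of letters and no evidence of binding.

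Among the class A receptors, Marco and Msr1 differed between the libraries in opposite directions. Marco had 37942 UMIs in the control library, which is 585 CPM (interval 579 to 591), but 14220 in the tumor library, which is 207 CPM (203 to 210). Marco was thus 2.83-fold higher in control AMs, with a log2 ratio of tumor over control of -1.50 (-1.53 to -1.47). Only 0.147% of the 7472 genes with a mean of at least 10 CPM had a lower ratio. Msr1 had 1853 UMIs among the control AMs, or 28.6 CPM (27.3 to 29.9), but 4740 among those of tumor-bearing mice, or 68.9 CPM (66.9 to 70.9). It was 2.41-fold higher in the tumor library (log2 ratio 1.27, 1.19 to 1.35), and 98.5% of those genes had a lower ratio.

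The class B receptors were both lower in the tumor library, by unequal amounts. Cd36, the fatty acid translocase, lay at 316 CPM (312 to 320) in control AMs. It came to 214 CPM (211 to 218) in tumor-library AMs, which gives a log2 ratio of -0.56 (-0.59 to -0.53). Scarb1, the high-density lipoprotein receptor, lay at 60.1 CPM (58.2 to 62.0) and 55.4 CPM (53.7 to 57.2) respectively, with a log2 ratio of -0.12 (-0.18 to -0.05) that turned to 0.01 when tumor clusters 1 and 4, described below, were left out. The 2 receptors therefore shared a class but not the size of the difference, which for Cd36 was 1.47-fold.

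The lectin-type receptors also divided. Olr1 counts came to 273 CPM (269 to 277) for control AMs and 432 CPM (427 to 437) for AMs of the tumor library, 1.58-fold higher in the latter with a log2 ratio of 0.66 (0.64 to 0.69). Siglec1 lay at 23.9 CPM (22.7 to 25.1) and 32.4 CPM (31.0 to 33.7), with a log2 ratio of 0.44 (0.35 to 0.53). Mrc1 lay at 855 CPM (848 to 862) and 712 CPM (706 to 718), with a log2 ratio of -0.26 (-0.28 to -0.25). Cd68, the endolysosomal glycoprotein, was level between the libraries at 446 CPM (441 to 451) and 445 CPM (440 to 450), with a log2 ratio of -0.00 (-0.02 to 0.02).

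Read against all genes, 1 of 8 members was at least 1.5-fold lower in the tumor library, where 11% of 12267 genes with at least 50 UMIs were (3.55% of those at 10 CPM or more). At least 1.5-fold higher in the tumor library were 2 of 8 members, where 8.44% of genes were (4.99% of those at 10 CPM or more). All 8 members lay at a mean of 10 CPM or more. Their median log2 ratio was -0.06, against -0.03 over the genes at that level and -0.06 over the 12267 genes, and their ratios ran from -1.50 to 1.27.

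**Figure D1:**
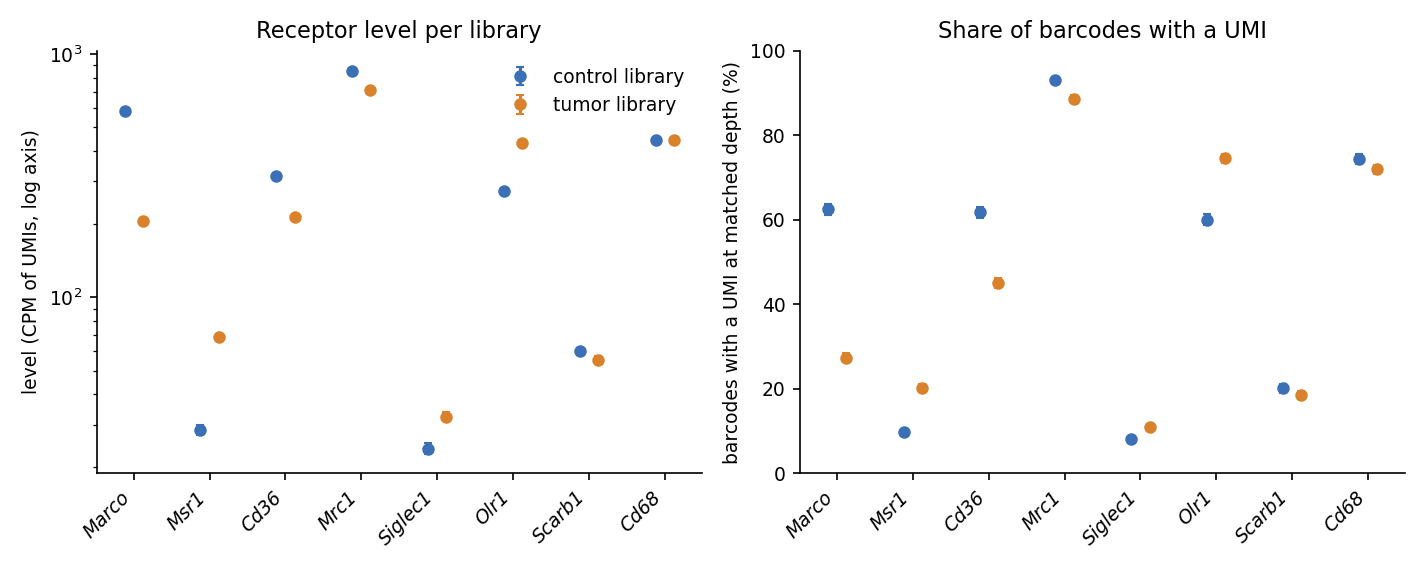
Left, level of each receptor in CPM of UMIs on a log axis; right, percent of barcodes with at least 1 UMI after thinning every barcode to 3800 UMIs. Blue points are the control library, orange points the tumor library and bars the exact 95% counting intervals, most of them smaller than the points; Marco lies at 62.5% and 27.4% of barcodes, while Msr1 and Olr1 lie higher in the tumor library.

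A lower level can come from fewer UMIs in every cell or from fewer cells with any, so barcodes were compared after thinning each to 3800 UMIs without replacement, which left 5590 control and 6937 tumor barcodes (595 and 729 were shallower). Marco had a UMI in 62.5% of control barcodes (61.2 to 63.8) and in 27.4% of tumor barcodes (26.3 to 28.4), a difference of -35.1 percentage points (-36.8 to -33.5). Without thinning its shares were 74.2% and 34.0%. Msr1 had a UMI in 9.70% and 20.1%, a difference of 10.4 points (9.21 to 11.7), against 22.1% and 37.4% unthinned. Its difference rested on few UMIs per barcode, was 11.97 points with another random thinning and 10.8 points as the expectation over all thinnings.

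The share of barcodes with Cd36 was 61.7% in the control library and 44.9% in the tumor library, 16.8 points apart (unthinned 82.9% and 62.2%). Olr1 went the other way, from 60.0% to 74.6%, a difference of 14.6 points (13.0 to 16.3; unthinned 84.1% and 90.1%). Mrc1 was detected in nearly every barcode, 93.1% and 88.7% (unthinned 97.8% and 95.8%). Cd68 had a UMI in 74.4% and 71.9% (unthinned 90.3% and 85.0%), Scarb1 in 20.1% and 18.5% (43.3% and 35.95%), and Siglec1 in 8.14% and 10.97% (21.0% and 22.8%). The direction for Scarb1 turned at a threshold of 2 UMIs, where the difference was 0.17 points.

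The barcodes with markers of another cell type that reached 3800 UMIs, 8 in the control and 15 in the tumor library, were examined at the same depth (medians of all such barcodes before thinning were 3875.5 and 8443.5 UMIs, against 10377 and 8264 for the others). Such a barcode was called only where the UMIs of another list exceeded those of the AM list. Barcodes with much free AM RNA were thus left out in advance, so low shares here cannot bound free RNA. None of the 8 and 15 barcodes had a Marco, Siglec1, Olr1 or Cd68 UMI, which with so few barcodes allows shares of up to 36.9% and 21.8% by the exact interval. Msr1 had a UMI in 1 of the 15, Mrc1 in 1 of the 8, and Cd36 in 3 of each, where endothelial cells, for which Cd36 is a known gene, are among the cell types marked. Scarb1 had one in 4 of the 15 (26.7%), above its share in the remaining tumor barcodes (18.4%), so the Scarb1 share in the tumor library is read neither as expression nor as a difference. Endothelial cells are a known site of Scarb1 too. The cell types of these barcodes were not broken down here, and the source of their Cd36 and Scarb1 UMIs was not tested.

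Marco stood apart from Cd36, Mrc1, Olr1 and Cd68 in how unevenly it was spread over barcodes. At 3800 UMIs its mean was 2.25 UMIs per control barcode with a variance-to-mean ratio of 3.86, and 37.5% of barcodes had none, where a Poisson distribution of the same mean gives 10.52%. In the tumor library the mean was 0.809 with a ratio of 4.57, and 72.6% had none against 44.5% for a Poisson distribution. The upper end remained present there: 3.47% of tumor barcodes still had 6 or more Marco UMIs, against 12.7% of control barcodes. In the control library the ratio exceeded that of 94.9% of the 589 genes with a mean of at least 1 UMI.

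The variance-to-mean ratios of the other 7 members ran from 1.02 (Scarb1) to 1.65 (Mrc1) in the control library and from 1.10 (Siglec1) to 1.73 (Cd36) in the tumor library. Msr1, Siglec1 and Scarb1 had means of only 0.087 to 0.239 UMIs per barcode. At such means the ratio lies near 1 for most spreads, so these members cannot be set against Marco. Mrc1 RNA was found in most barcodes, with a median of 3 UMIs in both libraries. Its barcodes at 0 were 6.89% in the control library, where a Poisson distribution gives 3.60%, and 11.3% in the tumor library, where it gives 5.75%. Olr1 had a median of 1 UMI in both libraries.

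**Figure D2:**
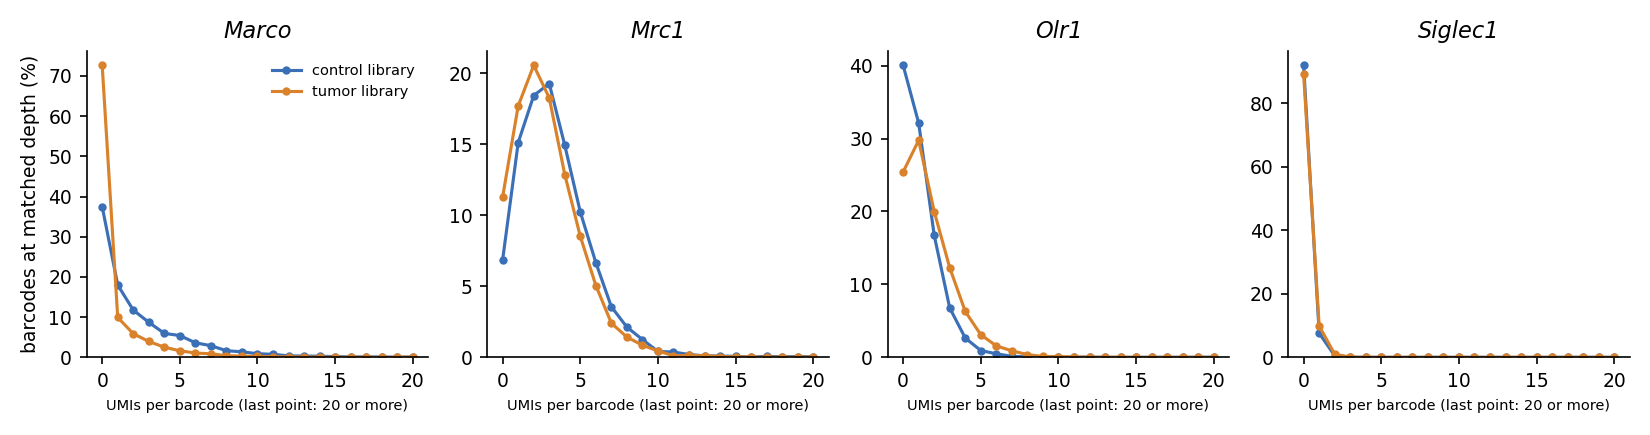
Percent of barcodes (vertical) by the number of UMIs per barcode after thinning to 3800 UMIs (horizontal, the last point pools 20 or more) for 4 receptors, with the control library in blue and the tumor library in orange. Marco piles up at 0 UMIs in the tumor library (72.6%) with a long tail in both libraries, whereas Mrc1 peaks at 3 UMIs in the control and 2 UMIs in the tumor library.

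To see where the receptors lay within each library, barcodes were clustered separately per library with the receptors and all listed genes left out of the clustering genes. The clusters are named by number and leading genes, they are no replicates, and values in them are descriptions. In the control library Marco lay in 9 of 11 clusters between 478 CPM (cluster 7, cell cycle genes Cenpf and Pimreg) and 894 CPM (cluster 5, led by the S-phase gene Uhrf1). The exceptions were cluster 11 (134 barcodes led by Fstl1, Il7r, Mmp12 and Mfge8) at 186 CPM and cluster 10 (140 barcodes led by S100a9, Ighm and Igkc, genes of other blood cells) at 109.5 CPM. Despite those leading genes, cluster 10 had an AM-list sum of 26656 CPM, against 21133 CPM in the whole control library. Its monocyte-list sum was 139 CPM, against 27.5 CPM in that library, and its median depth was 9858 UMIs. A finer clustering (Leiden resolution 1 in place of 0.5) gave a control cluster of 131 barcodes at 23.7 CPM and a lowest tumor level of 4.64 CPM, so the span of Marco over clusters depends on the resolution.

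In the tumor library Marco lay at 9.23 CPM in cluster 1 (2295 barcodes with F13a1, Vps37b, Ckb and Il6 among the leading genes) and at 8.96 CPM in cluster 4 (710 barcodes led by Fstl1, Hpse, Slamf7, Il7r and Lat2). Cluster 5, led by the interferon-induced genes Cxcl9, Ifit3 and Rsad2, lay between at 123 CPM. Marco lay at 365 CPM in cluster 2 (2220 barcodes, Wwtr1 and Lepr), 458 CPM in cluster 3 (heat shock genes Hspa1a and Hspa1b) and 578 CPM in cluster 6 (407 barcodes, Ear1 and Wfdc10), which lies within the control range. The remaining clusters were 7 (cell cycle genes, 223 CPM), 8 (203 CPM, where 78.9% of the 190 barcodes had doublet scores among the highest), 9 (172 CPM, median 1431.5 UMIs) and 10 (146 CPM, led by genes of other cells such as Selp and Sele).

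At 3800 UMIs, 2.54% of the barcodes of tumor cluster 1 (1.91 to 3.30) and 2.43% of those of cluster 4 (1.42 to 3.85) had a Marco UMI, against 47.6% in cluster 2, 53.2% in cluster 3 and 53.1% in cluster 6. Clusters 1 and 4 held 39.2% of the tumor barcodes and 39.1% of their UMIs but only 1.73% of the Marco UMIs, 246 of 14220. Of the Msr1 UMIs they held 53.2%, of the Cd36 UMIs 26.3% and of the Olr1 UMIs 41.0%, close to their share of all RNA for the last. Their summed monocyte-list levels were 127 and 197 CPM, with 154 CPM in cluster 5, against 26.9 to 32.8 CPM in clusters 2, 3 and 6, and the part of this in the Marco level was not tested. Their AM-list sums were 17146 and 17180 CPM, against 21923 to 26477 CPM in clusters 2, 3 and 6.

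In the tumor library Msr1 was high in the clusters where Marco was lowest. It was highest in clusters 4 (103 CPM), 5 (99.5 CPM) and 1 (88.8 CPM) and lowest in cluster 3 (31.5 CPM), with 41.8 CPM in cluster 2 and 42.2 CPM in cluster 6. In the control library it ran from 19.3 CPM in cluster 7 to 37.4 CPM in cluster 2 (led by the cytokine genes Cxcl1, Inhba and Il1b), apart from 63.4 CPM in cluster 10.

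Cd36 in the tumor library ran from 111 CPM in cluster 1 to 313 CPM in cluster 2, so a cluster with nearly no Marco RNA was also lowest in Cd36. Cluster 4, equally low in Marco, lay between at 210 CPM. Among control clusters Cd36 was highest in cluster 11 (662 CPM, with Marco at 186 CPM), whereas at resolution 1 it was highest, at 513 CPM, in a cluster with Marco at 721 CPM. Olr1 was nearly flat over the 3 largest tumor clusters, at 494, 478 and 478 CPM, and each exceeded every control cluster except the low-depth cluster 4 (603 CPM, median 2920.5 UMIs).

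Among the tumor clusters of over 200 barcodes, Mrc1 was lowest in clusters 4 (438 CPM) and 5 (480 CPM), against 797 to 854 CPM in clusters 1 to 3. Over clusters 1 to 5 Cd68 was arranged the other way, at 661 CPM in cluster 4 and 689 CPM in cluster 5 against 321 to 383 CPM in clusters 1 to 3. Clusters 6 and 7 did not follow this arrangement. Cluster 6 had Mrc1 at 737 CPM and Cd68 at 590 CPM, and cluster 7 had Mrc1 at 611 CPM and Cd68 at 360 CPM. In control cluster 11 Cd68 lay at 1059 CPM. The equal level of Cd68 in the libraries as a whole thus covered a wide range within each. Siglec1, a gene known to be induced by interferon, was highest in the interferon-led tumor cluster 5 at 54.6 CPM, where 20.3% of barcodes had a UMI, against 24.0 CPM in cluster 1. Scarb1 ran, over the tumor clusters of over 200 barcodes, between 46.2 and 78.5 CPM.

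**Figure D3:**
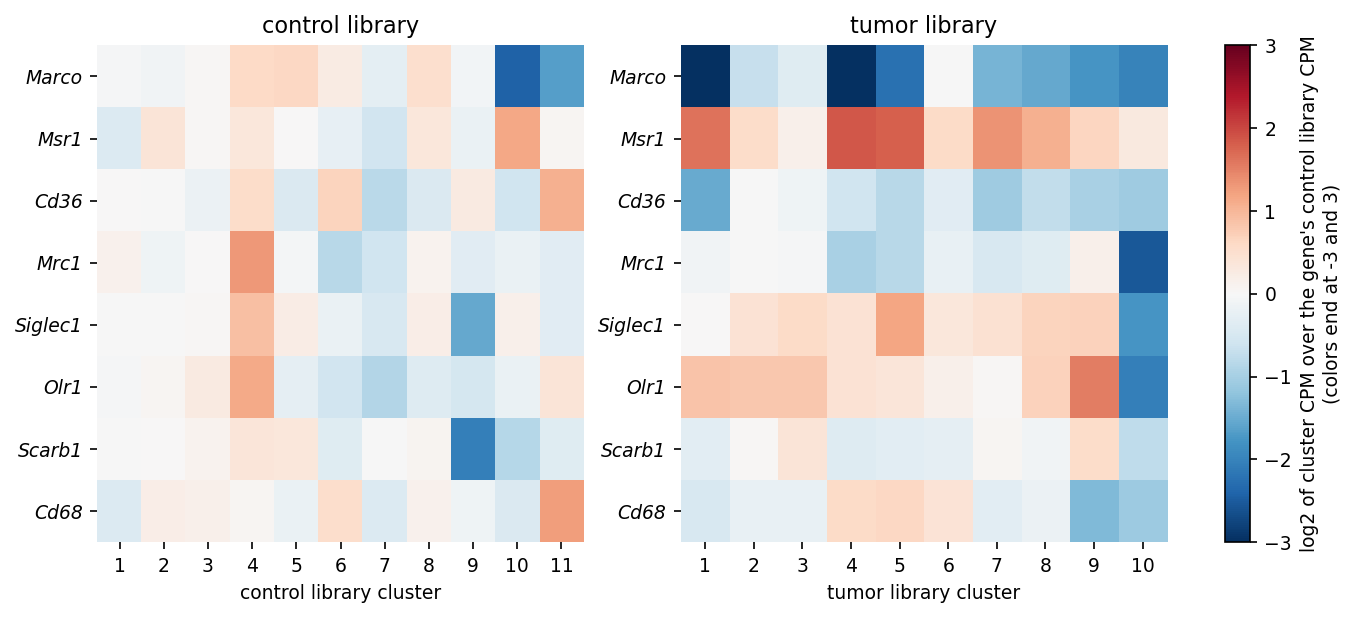
Color gives the log2 of each cluster's CPM over the same gene's CPM in the whole control library, for 8 receptors (rows) and the clusters of each library (columns, at least 50 barcodes each). The darkest blue cells are Marco in tumor clusters 1 and 4 (9.23 and 8.96 CPM against 585 CPM in the control library), and Msr1 is red in tumor clusters 1, 4 and 5.

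Clusters of both libraries that shared at least 2 of their 10 leading genes were set side by side. Between control cluster 1 and tumor cluster 2, which shared Acaa1b and Cidec, Marco lay at 572 and 365 CPM (log2 ratio -0.65, -0.69 to -0.60). Between the heat shock clusters 3 and 3, Marco lay at 601 and 458 CPM (-0.39, -0.46 to -0.33). Between the cell cycle clusters 7 and 7 it lay at 478 and 223 CPM (-1.10, -1.23 to -0.97), and between control cluster 11 and tumor cluster 4, which shared Fstl1, Il7r and Syngr1, at 186 and 8.96 CPM (-4.38, -4.74 to -4.02). The clusters of this last pair also differed in their marker lists, with summed monocyte-list levels of 32.9 and 197 CPM and AM-list levels of 27778 and 17180 CPM, and Mrc1 (-0.62) and Cd68 (-0.68) were lower in the tumor cluster too. In the cell cycle pair the monocyte-list sums were 42.7 and 79.7 CPM. They were 19.7 and 28.3 CPM in the Acaa1b and Cidec pair and 32.5 and 26.9 CPM in the heat shock pair. The part of these differences in the Marco ratios, and in the Msr1 ratios below, was not tested. Marco was lower in the tumor library in each of the 4 pairs, by unequal amounts.

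Olr1 was higher in the tumor library in the same first 3 pairs, with log2 ratios of 0.85, 0.53 and 0.91, and level in the last (0.06, -0.06 to 0.18). Msr1 was higher by 0.95, 1.90 and 1.79 in 3 pairs, and in the heat shock pair its interval spanned 0 (0.10, -0.16 to 0.35). Cd36 was level in the Acaa1b and Cidec pair (-0.02, -0.07 to 0.04) and in the heat shock pair (0.05, -0.04 to 0.13), and lower in the tumor library in the cell cycle pair (-0.25) and the Fstl1 pair (-1.66). With tumor clusters 1 and 4 left out, a choice made after seeing the data that used Marco itself, the log2 ratios over the libraries were -0.81 for Marco, 0.89 for Msr1, -0.28 for Cd36, -0.22 for Mrc1, 0.59 for Siglec1, 0.62 for Olr1 and 0.02 for Cd68. The members at least 1.5-fold higher in the tumor library then numbered 3 in place of 2, with Siglec1 at 1.51-fold.

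Co-expression between cells was weak in both libraries. Pearson's r of log2(UMI + 1) over barcodes thinned to 3800 UMIs is given as a description, since all barcodes of a library share its preparation. Over the 28 pairs of measured receptors the median r was 0.007 in the control library and 0.010 in the tumor library, with 16 and 18 pairs above 0. An r of at least 0.1, a threshold set after seeing the values, was reached by 1 of 28 pairs in each library, against 0.0743% of all gene pairs in the control library (6700 genes) and 0.091% in the tumor library (6691 genes).

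In the control library that pair was Mrc1 and Olr1 (r = 0.122), which came to 0.083 in the tumor library. In the tumor library it was Marco and Cd36 (r = 0.178), which came to 0.084 in the control library. Both Marco and Cd36 had a UMI in 15.9% of tumor barcodes, where independence of the shares gives 12.3%. As a mean within clusters, weighted by barcodes, the r of Marco and Cd36 was 0.050 in the tumor library and 0.090 in the control library. Only 2.54% and 2.43% of barcodes in tumor clusters 1 and 4 had a Marco UMI, which limits r there. The mean therefore does not divide the tumor value into parts within and between clusters. The lowest values in the tumor library were those of Mrc1 and Cd68 (-0.120, within clusters -0.050) and of Marco and Msr1 (-0.076, within clusters 0.012). Marco and Msr1, both class A receptors, had a UMI together in 3.85% of tumor barcodes where independence gives 5.51%, and in the control library their r was -0.008.

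**Figure D4:**
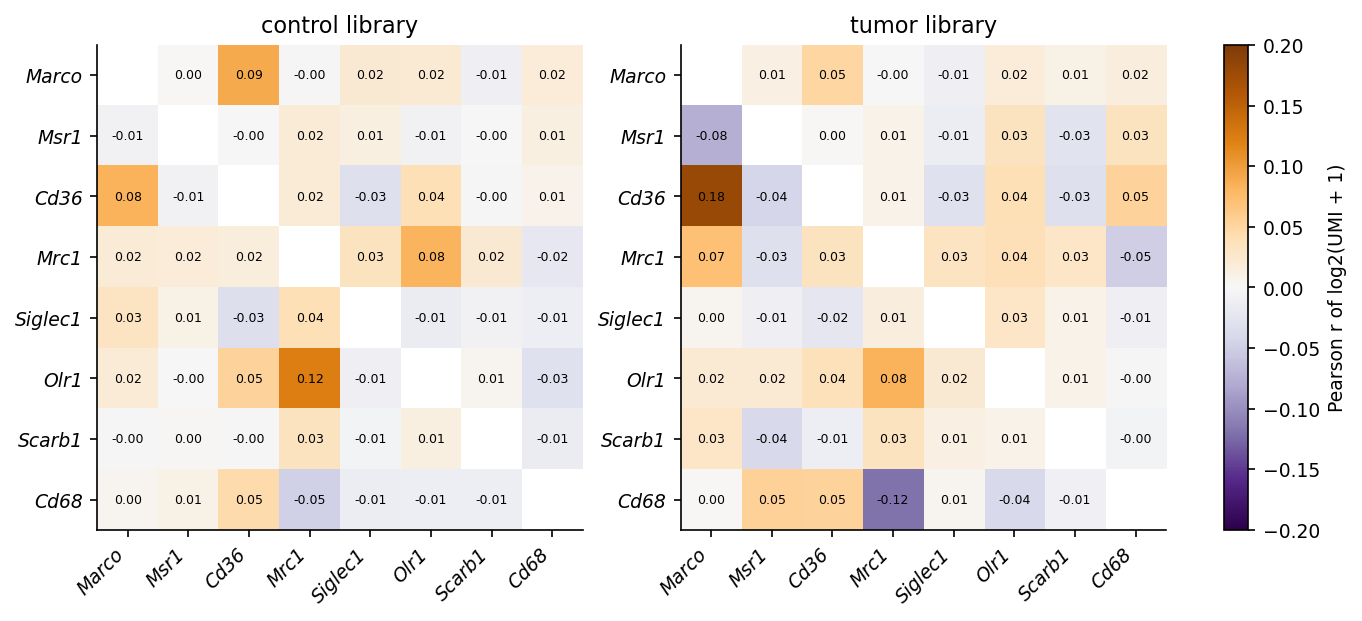
Pearson r of log2(UMI + 1) for each pair of receptors at 3800 UMIs in the control library (left) and the tumor library (right); cells below the diagonal are over all barcodes, cells above it are means within clusters weighted by barcodes. Marco and Cd36 (0.18) and Mrc1 and Cd68 (-0.12) stand out below the diagonal in the tumor library and come to 0.05 and -0.05 above it.

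Ordered by their Marco UMIs, tumor barcodes with 0, 1 to 2, 3 to 5 and 6 or more (5038, 1096, 562 and 241 barcodes) had Cd36 levels of 180, 266, 330 and 330 CPM. In the control library the corresponding Cd36 levels were 290, 318, 351 and 358 CPM (2095, 1663, 1123 and 709 barcodes). At 3 or more Marco UMIs the Cd36 intervals of the libraries overlapped, whereas at 0 Marco UMIs they lay far apart (278 to 302 CPM in the control and 174 to 186 CPM in the tumor library). Msr1 was 70.3, 42.7, 36.5 and 57.9 CPM in the tumor classes and 30.6, 27.5, 24.1 and 34.1 CPM in the control classes, and its intervals lay apart in every class but that of 3 to 5 Marco UMIs, where they just met (28.9 to 45.6 and 19.7 to 29.3 CPM). Olr1 was higher in the tumor library in all 4 classes, 440 to 491 CPM against 277 to 308 CPM. The summed monocyte list was 134 CPM in tumor barcodes with 0 Marco UMIs and 26.2 to 42.5 CPM in the other tumor classes.

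**Figure D5:**
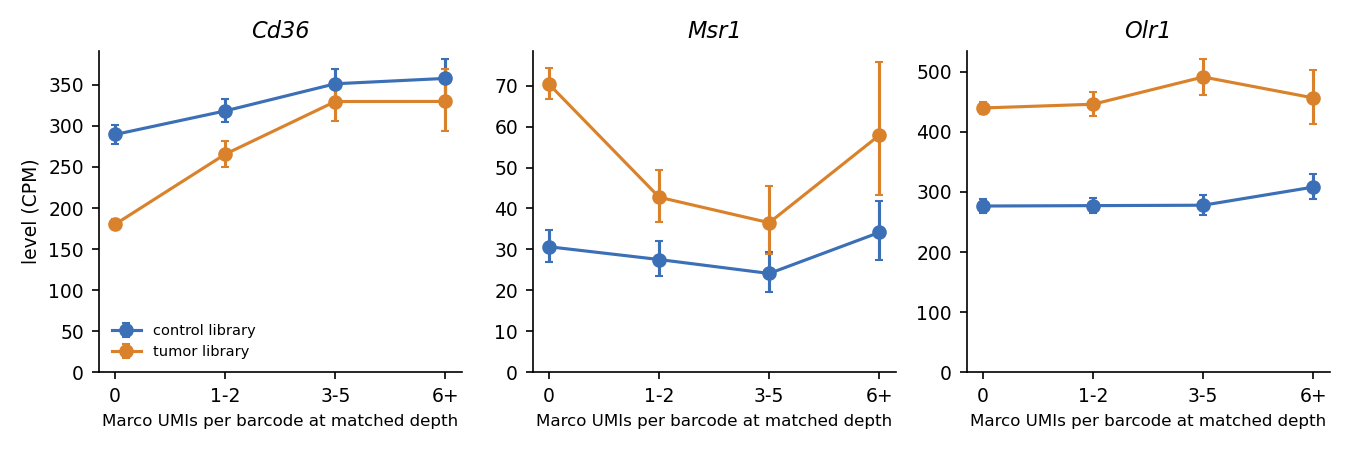
Level of Cd36, Msr1 and Olr1 in CPM (vertical) in barcodes grouped by their number of Marco UMIs at 3800 UMIs (horizontal), with the control library in blue, the tumor library in orange and exact 95% Poisson intervals as bars. The Cd36 levels of the libraries meet at 3 or more Marco UMIs (330 and 351 CPM at 3 to 5), while Olr1 stays apart at every Marco level.

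Among all genes detected in at least 5% of thinned barcodes, those whose RNA followed Marco most closely in the tumor library were Ccnd2 (r = 0.346), the keratin gene Krt19 (0.318) and Krt79 (0.308), an AM keratin. The lowest were S100a6 (-0.341), Ctss, a lysosomal protease gene (-0.291), and Fn1, the fibronectin gene (-0.288). In the control library the values for Marco were smaller, with Prdx1 (0.143), Lpl, the lipoprotein lipase gene (0.121), and Fabp1 (0.119) at the top and Crip1 (-0.189), Fn1 (-0.156) and Mmp12 (-0.155) at the bottom. Fn1 was thus among the lowest for Marco in both libraries.

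The genes closest to Cd36 were Creg1 (0.202), Gstm1 (0.199) and Psap (0.189) in the control library and Lpl (0.210), Prdx1 (0.201) and Krt19 (0.194) in the tumor library. Cd68 was led in both libraries by Fth1, the ferritin heavy chain gene (0.305 and 0.355), Fabp5 (0.274 and 0.293) and Lyz2, the lysozyme gene (0.263 and 0.274). Mrc1 was led by Cd44 (0.212), Malat1 and Neat1 in the control library and by Plet1 (0.273), Cd44 (0.245) and Abcg1 in the tumor library, and Fth1 was its lowest gene in both (-0.216 and -0.271). Malat1 and Neat1 are nuclear RNAs, and Neat1 was also among the leading genes of the low-depth control cluster 4, where Mrc1 was highest (2094 CPM).

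Olr1 shared Cd44 with Mrc1, at 0.132 in the control and 0.165 in the tumor library, next to Malat1 (0.138) and Plet1 (0.171), and in the control library Mrc1 itself was the third closest gene (0.122). Msr1 in the tumor library was led by Spp1, the osteopontin gene (0.156), Wfdc17 (0.146) and Ctss (0.127), and in the control library by Chil3 (0.093), Fn1 and Crip1. For Siglec1 the values were small, with B2m (0.077), Ifi27l2a (0.077) and Oas3 (0.073), all known interferon-responsive genes, in the tumor library. For Scarb1 they were small as well, with Ctsc (0.053) and the sterol synthesis gene Cyp51 (0.048) among the closest in the control library and Egr1 (0.061), Eif2b2 and Fermt3 in the tumor library. At these counts an r below 0.1 is not read as a relation.

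Of 18 other scavenger receptors, 11 had at least 50 UMIs, and 2 of them were at least 1.5-fold lower and 5 at least 1.5-fold higher in the tumor library, with a median log2 ratio of 0.21. Cxcl16, a membrane chemokine that also binds oxidized lipoprotein, lay at 10.3 and 49.7 CPM (log2 ratio 2.26). Cd14, the lipopolysaccharide co-receptor, lay at 203.5 and 374 CPM (0.88), and Colec12, a collectin scavenger receptor, at 21.2 and 32.7 CPM (0.63). The other higher genes, Scarf1 (1.14 and 4.04 CPM) and Stab1 (0.339 and 0.552 CPM), and the lower ones, Ager (5.67 and 2.81 CPM) and Cd209b (0.894 and 0.160 CPM), rested on few UMIs. Cd163, the hemoglobin scavenger receptor, had 0 UMIs in the control and 2 UMIs in the tumor library, which is too few for a ratio.

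Of 21 other C-type lectin receptors, 16 were counted, 3 lower and 5 higher by 1.5-fold, with a median of 0.09. Clec1a lay at 22.0 and 8.46 CPM (-1.38), Clec2d at 27.8 and 58.1 CPM (1.06) and Clec4e, the receptor Mincle for microbial glycolipids, at 46.9 and 90.9 CPM (0.95). Also past 1.5-fold were Clec4d at 82.3 and 153 CPM, Clec1b at 38.6 and 23.3 CPM and, with few UMIs, Clec12b (lower), Clec4a1 and Clec10a (both higher). Of 7 other sialic acid-binding lectins, 6 were counted, 0 lower and 1 higher (Siglecg, 0.540 and 1.12 CPM), with a median of 0.11. Siglecf, the surface marker of the sort itself, lay at 137 and 102 CPM (-0.42), Mag at 25.2 and 30.6 CPM (0.28) and Cd22 at 52.4 and 62.1 CPM (0.24).

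All 12 signaling partners of dectin-1 and CD36 were counted, 0 lower and 2 higher by 1.5-fold (Malt1 and, at 0.447 and 1.79 CPM, Src), with a median of 0.04. Malt1 lay at 160 and 277 CPM (0.79), Prkcd at 149 and 220 CPM (0.56) and the kinase gene Syk at 220 and 267 CPM (0.28). Of 12 transcription factors linked to these receptors, 0 were lower and 3 higher (among them Klf4 and, at 1.02 and 5.70 CPM, Maf), with a median of 0.22. Klf4 lay at 389 and 587 CPM (0.59) and Nr1h3, the oxysterol receptor LXR alpha, at 42.6 and 62.9 CPM (0.56). Pparg, the fatty acid-sensing receptor linked to Cd36, was nearly level at 127 and 119 CPM (-0.10), as was Spi1, which encodes PU.1 (-0.09). These counts are read against 11% lower and 8.44% higher among all genes.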

How the data were processed

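Droplet 3' libraries of sorted mouse AMs were analysed from the deposited UMI count tables, 1 per condition. The authors made these counts with Cell Ranger (4.0.0 in the submitters' processing notes, 5.0.0 in the study's methods) on mm10, after bcl2fastq 2.20. Of 32285 gene identifiers, 32158 were matched to symbols. Barcodes were filtered, and counts were summed per library and divided by the kept total (64850143 and 68801889 UMIs) to give CPM. Intervals were exact Poisson (levels), conditional binomial (ratios) or Clopper-Pearson (shares), and cover counting error only. The thinning depth was the 10th percentile of the shallower library. Clusters used scanpy 1.11.5 (2000 variable genes, 30 components, 15 neighbors, Leiden resolution 0.5). Scrublet's own threshold marked 0 barcodes in each library and so had not worked; barcodes scoring above the limit of the highest 6% of kept barcodes (274 and 410, since those tied at the limit did not count) stayed in, and were removed as an alternative. The libraries shared 25 barcode sequences, 19 and 23 of them kept. The members and lists were chosen with earlier results of these data known. Named beside the members were, per list, up to 3 genes with the largest ratio at 10 CPM or more, the 3 closest genes per member and the 5 leading genes per cluster; lowest correlations, Cd163, Pparg, Spi1, further leading genes and list genes past 1.5-fold outside this rule were named after their values were seen. A few genes that this rule names are not reported here. The statistics were tested on simulated data.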

Additional observations from a re-analysis of the deposited data

Results flagged for a closer look

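Barcodes over the mitochondrial limit but with at least 500 genes entered none of the main comparisons, and were used only in the alternative with all deposited barcodes. In these 977 control and 764 tumor barcodes Olr1 lay at 439 CPM (411 to 470) and 632 CPM (590 to 675), a log2 ratio of tumor over control of 0.52 (0.39 to 0.66). This signal is listed because it appeared above the control level in data that the main comparisons left out. In the same barcodes Marco lay at 539 and 180 CPM (-1.58) and Cd36 at 308 and 142 CPM (-1.12). Mrc1 lay at 1278 and 770.2 CPM (-0.73) and Cd68 at 287 and 199.5 CPM (-0.52, -0.74 to -0.31), both farther apart than in the kept barcodes, while the interval of Msr1 spanned 0 (0.55, -0.01 to 1.11).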

How the results depend on the processing

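Marco, Cd36 and Mrc1 stayed lower and Msr1, Siglec1 and Olr1 higher in the tumor library under every alternative run, which changed the limits on genes and mitochondrial UMIs, doublets, scaling, and the barcodes left out. The log2 ratio of Marco ran from -1.52 to -0.81, that of Msr1 from 0.89 to 1.33 and that of Olr1 from 0.62 to 0.72. Scarb1 changed direction without tumor clusters 1 and 4 (log2 ratio of tumor over control 0.011), and its share difference did so at a threshold of 2 UMIs (0.17 points); the cause was not tested. At 5000 UMIs the tumor library had 2 receptor pairs with r of at least 0.1, and as a mean within clusters the count was 0 in each library. Share differences moved with depth, for Marco from -27.9 points at a depth of 2000 UMIs to -40.1 points unthinned and for Msr1 from 6.62 to 15.3 points. At a threshold of 2 UMIs per barcode they were -27.1 and 1.965 points. With Leiden resolution 1 the highest cluster level moved from 662 to 513 CPM for Cd36 and from 1059 to 757 CPM for Cd68 in the control library, and from 54.6 to 75.3 CPM for Siglec1 in the tumor library. Depth limits Siglec1, Msr1 and Scarb1 most, since few barcodes held more than 1 of their UMIs. No paired analysis was possible because there was 1 library per condition.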
